A study of Mus musculus with 10 samples.

Results

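The genes described here encode the proteasome, the protease complex that breaks down most proteins marked with ubiquitin. Members were all genes on the arrays whose name in the scanner files, or whose current symbol, reads Psma to Psmg followed by a number. This pattern matched 49 of 27670 genes, and 47 of them encode subunits, activators, an inhibitor or assembly chaperones of the proteasome. The remaining names, Psmc3ip and Psme3ip1, belong to genes that are not proteasome subunits, and they are given apart. The 47 genes had 71 of the 41174 probes. A reference gene table lists 49 protein-coding proteasome genes, of which Psme2 and Psmg4 had no probe of that name. Psme2b, a close copy of Psme2 that the files list as a pseudogene, had 2 probes, and their binding to Psme2 was not tested.

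Lung RNA came from female BALB/c mice, of which 5 breathed room air and 5 inhaled cigarette smoke over 8 weeks, with 1 lung per array. BALB/c is an inbred laboratory strain, and the labels name no genetic change in either group. Per the study's methods, the mice were 6 to 8 weeks old on receipt, and the smoke group breathed the smoke of 12 reference cigarettes in each of 2 exposures of 50 minutes a day, on 5 days a week. The comparison of the groups asks how smoke changes gene expression in the lung.

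Only Cy3 is named in the sample labels, yet each scanner file has both a red and a green channel. On the Y chromosome, Ddx3y had log2 ratios of red over green between -2.87 and -1.65 in these female lungs and was well above background in red on 2 of 10 arrays. Sftpc, which alveolar type 2 cells express, had ratios between 5.12 and 6.23, and Ager, a gene of alveolar type 1 cells, between 4.30 and 5.25. Red was therefore read as lung and green as a reference that holds male RNA, and every level given here is a log2 ratio of lung over reference for 1 probe. Such levels do not rank genes by abundance. In red, 67.8 to 76.7% of spots were well above background with room air and 64.9 to 77.5% with smoke.

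The proteasome has a barrel-shaped core particle of alpha and beta rings, in which 3 beta subunits cut proteins, and caps or activators that open the barrel. Regulatory caps hold a ring of ATPases that unfold substrates and non-ATPase subunits that bind and remove ubiquitin, whereas activators of the Psme genes open the core without ATP. Interferon gamma induces the immunoproteasome subunits Psmb8, Psmb9 and Psmb10, which replace the standard subunits Psmb5, Psmb6 and Psmb7 in newly built cores and are abundant in immune cells, and the factors Nfe2l1 and Nfe2l2 are known activators of proteasome genes.

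Most proteasome genes differed little between smoke-exposed and room air lungs. Psme4, an activator, rose with smoke, and Psmb9, an immunoproteasome subunit, fell. These were the only members that limma called at an adjusted p under 0.05 over all probes, 1 of 47 higher and 1 of 47 lower, where 4.96% of all genes were called higher and 3.27% lower. Together the 2 calls compare with 8.23% of the 27669 genes tested. At an unadjusted p under 0.05 there were 6 members, namely Psma8, Psmb5, Psmb9, Psmd3, Psmd4 and Psme4, where 5521 of 27669 genes tested had one. By the brightest probe of each gene, the groups did not overlap in 4 members (Psma8, Psmb9, Psmd4 and Psme4), where 7.89% of all genes had groups that did not overlap. In whole lung, fewer cells of a type and less RNA per cell cannot be told apart.

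The log2 differences, smoke minus room air, had a median of 0.032 over the 47 genes, with quartiles of -0.014 and 0.086, beside a median of -0.0042 and quartiles of -0.072 and 0.061 over all genes. The difference was above 0 in 32 members (68.1%) and in 48.1% of all genes, and this side is not stable, since median centring of the arrays in place of loess turned the medians of the alpha subunits and of the cap below 0. The 95% confidence intervals of the 45 members not called ran from -0.45 to 0.36. Of the 47 genes, 46 were well above background in red on all 10 arrays, and the exception was Psmb11, a subunit of the thymus proteasome, which was above background on 3. The whole comparison called 2906 of 41173 probes, 61.7% of them higher with smoke, and with median centring 1434 probes, 47.9% of them higher.

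**Figure D1:**
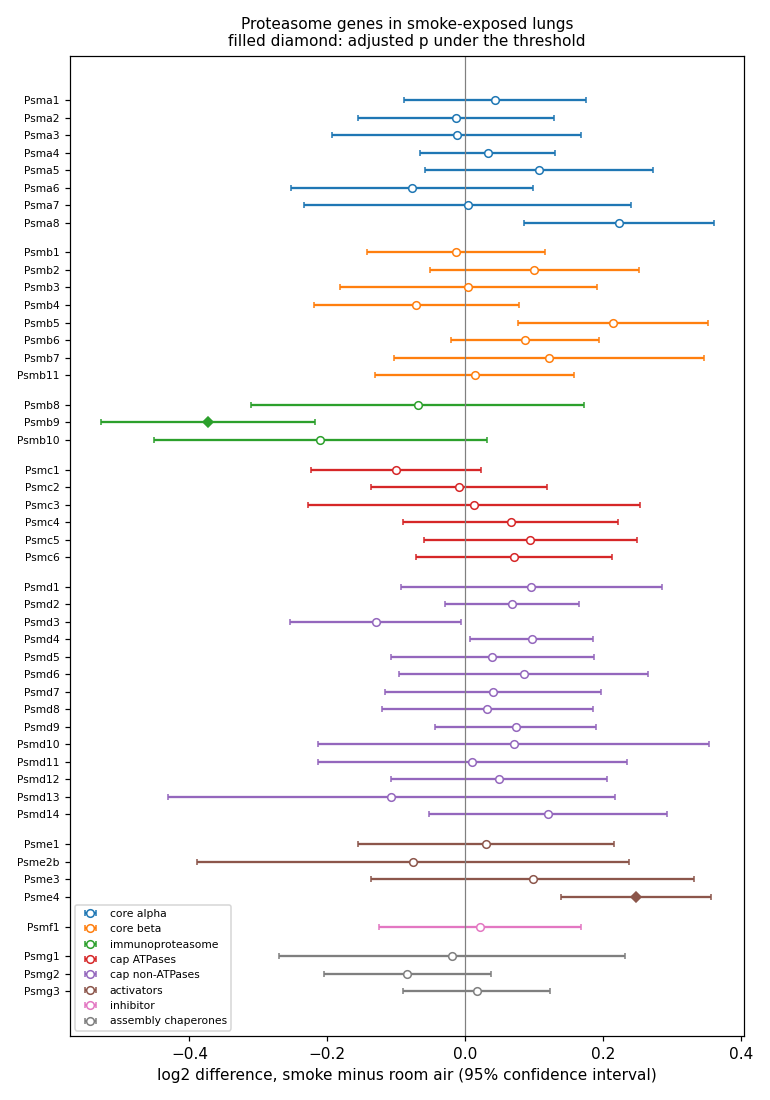
Log2 difference between smoke-exposed and room air lungs for each of the 47 proteasome genes, with the 95% confidence interval of limma, coloured by class. Filled diamonds mark adjusted p under 0.05, and only Psmb9 at -0.37 and Psme4 at 0.25 carry one.

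The 10 arrays lay on 5 slides, and each slide held a smoke and a room air array of the same replicate number. With this slide as a block, limma called 3 members, Psma8, Psmb9 and Psme4, where 13.8% of all genes were called. Without room air replicate 1, whose levels stood apart in several members, it called 2, Psmb9 and Psme4, where 10.4% of all genes were called. That lung was picked out from these same values, so that a smaller p without it, in any gene, is no separate support. In the green reference, limma called 0 of the 47 members and 14 of 41173 probes. At an unadjusted p under 0.05 the reference had 428 probes, and the lowest unadjusted p of a member was 0.243.

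Stretches of DNA at the start sites of 5 genes are shown because the comparison turns on them: Psmb9 and Psme4 were called, and Psmb5, Psmb6 and Psmb8 belong to the pairs of standard and immunoproteasome subunits. The sequences come from RefSeq on the mouse build GRCm38.p6 and read 5′ to 3′ on the strand of the gene. They lie at chr17:34187331-34187555 (minus strand) for Psmb9, chr17:34198045-34198194 (plus) for Psmb8, chr14:54617996-54618145 (minus) for Psmb5, chr11:70525207-70525356 (plus) for Psmb6 and chr11:30771625-30771776 (plus) for Psme4. The stretch of Psme4 runs 2 bases past the start, across which its match lies, and the others end at the last base before the start. Capitals mark matches to 3 motifs searched on both strands, the antioxidant response element TGACNNNGC, the interferon-stimulated response element GAAANNGAA and the gamma-activated site TTCNNNGAA.
Psmb9: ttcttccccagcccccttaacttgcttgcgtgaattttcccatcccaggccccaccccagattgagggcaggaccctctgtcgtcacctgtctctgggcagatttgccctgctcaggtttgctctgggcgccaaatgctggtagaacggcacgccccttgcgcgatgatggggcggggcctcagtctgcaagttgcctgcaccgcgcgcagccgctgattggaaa
Psmb8: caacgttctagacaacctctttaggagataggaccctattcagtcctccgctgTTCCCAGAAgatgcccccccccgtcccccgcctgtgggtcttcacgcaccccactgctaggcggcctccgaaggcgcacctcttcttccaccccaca
Psmb5: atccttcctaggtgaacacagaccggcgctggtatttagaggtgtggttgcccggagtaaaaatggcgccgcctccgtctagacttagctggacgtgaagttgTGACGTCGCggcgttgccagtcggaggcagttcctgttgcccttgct
Psmb6: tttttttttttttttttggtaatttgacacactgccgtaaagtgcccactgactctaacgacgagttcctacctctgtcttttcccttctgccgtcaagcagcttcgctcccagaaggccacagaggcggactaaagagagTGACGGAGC
Psme4: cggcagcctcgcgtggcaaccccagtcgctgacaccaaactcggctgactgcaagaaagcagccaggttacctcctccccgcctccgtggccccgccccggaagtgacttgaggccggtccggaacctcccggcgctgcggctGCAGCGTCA
The capitals are an antioxidant response element in Psmb5, Psmb6 and, on the other strand, Psme4, and a gamma-activated site in Psmb8. The 225 bases of Psmb9 fill the gap between its start site and that of Tap1, a peptide transporter gene read in the opposite direction, and they hold none of these letters. A match is a string of letters and not a measured binding site.

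Promoter windows of 300 bases, 250 before and 50 after the start, were found for 39 of the 47 genes. There was none for Psma8, Psmb1, Psmb2, Psmb7, Psmc3, Psmd3, Psmd7 and Psmg2. The antioxidant response element was in 6 of the 39 genes (15.4%), namely Psmb5, Psmb6, Psmc6, Psmd9, Psmd12 and Psme4, and in 14.0% of all 27025 genes with a window. By their brightest probes these genes had differences from 0.049 in Psmd12 to 0.25 in Psme4, and by other probes Psmc6 (-0.075), Psmd12 (-0.068) and Psmd9 (-0.0067) lay below 0. The interferon-stimulated response element was in 6 (15.4%), Psmb3, Psmb4, Psmc2, Psmd4, Psmd9 and Psme1, against 9.76% of all genes, and the log2 differences of their brightest probes ranged from -0.071 in Psmb4 to 0.097 in Psmd4. The gamma-activated site was in 3 (7.69%), Psmb8, Psmd2 and Psmg1, against 9.55%, with differences between -0.069 and 0.068. No match overlapped a match of another motif.

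In the outer rings of the core, 0 of 8 alpha subunits were called by limma. An unadjusted p under 0.05 was found in 1, Psma8, and in 5521 of 27669 genes overall. The median log2 difference of the 8 genes was 0.018, and it was -0.056 with median centring and 0.092 with the red channel alone set to equal 75th percentiles. Without each array in turn this median lay between -0.011 and 0.055. Psma8, the alpha subunit of the testis proteasome, had a level of 0.87, 0.65, 0.88, 0.77 and 0.87 in room air replicates 1 to 5 and of 1.05, 1.01, 1.18, 0.92 and 0.99 in smoke replicates 1 to 5. Every smoke lung lay above every room air lung. The log2 difference of Psma8 was 0.22 (SE 0.063), and it missed the threshold (adjusted p = 0.0590, limma) but passed it in 4 of 22 alternatives, namely with the slide as a block (adjusted p = 0.0273), with ratios scaled between arrays (0.26, adjusted p = 0.0331), with red alone set to equal quantiles (0.32, adjusted p = 0.0451) and with the mean of all probes (adjusted p = 0.0472). Psma8 has 1 probe, so the last of these used the same ratios and was fitted and adjusted over genes in place of probes. This probe was well above background in green on 2 of 10 arrays, so that its ratio rests on a dim reference. With the scanner's own ratio the difference was 0.53 with an adjusted p of 0.781. The other 7 alpha subunits ranged from -0.077 in Psma6 to 0.11 in Psma5.

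In the inner rings, limma called 0 of the 8 beta subunits outside the immunoproteasome. Only 1, Psmb5, had an unadjusted p under 0.05, as did 5521 of 27669 genes overall. The 8 are Psmb1 to Psmb7 and the thymus subunit Psmb11, which was near background here and had a difference of 0.014 (SE 0.066). The median log2 difference of core beta genes was 0.050, and it was 0.12 with the scanner's own ratio and 0.0054 with median centring. Psmb5, which carries the chymotrypsin-like activity, had a level of -0.016, -0.11, -0.11, 0.12 and 0.0044 in room air replicates 1 to 5 and of 0.18, 0.11, 0.23, 0.097 and 0.35 in smoke replicates 1 to 5. Room air replicate 4 lay above 2 of the smoke lungs, and the other 4 room air lungs lay below all smoke lungs. The log2 difference was 0.21 (SE 0.063, fold change 1.16) with an adjusted p of 0.0682 (limma), and without room air replicate 4 it was 0.25 with an adjusted p of 0.0384.

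Psmb6, which carries the caspase-like activity, had a level of 0.037, -0.18, -0.082, -0.092 and -0.13 in room air replicates 1 to 5 and of 0.013, -0.031, 0.015, -0.058 and 0.050 in smoke replicates 1 to 5. Room air replicate 1 lay among the smoke lungs, so the groups overlapped (log2 difference 0.087, SE 0.049, adjusted p = 0.419, limma). Psmb7, which carries the trypsin-like activity, had a level of -0.89, -1.03, -0.80, -0.53 and -0.74 with room air and of -0.65, -0.94, -0.70, -0.63 and -0.46 with smoke, in the same order of replicates. Here the groups overlapped over most of their range (difference 0.12, SE 0.10, adjusted p = 0.651, limma). The structural beta subunits Psmb1, Psmb2, Psmb3 and Psmb4 ranged from -0.071 in Psmb4 to 0.10 in Psmb2.

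All 3 immunoproteasome subunits had a log2 difference below 0, and 1 of them was called, beside 3.27% of all genes called lower. Their median was -0.21, and it was -0.093 without room air replicate 1. Psmb9, the subunit that takes the place of Psmb6, had a level of 2.22, 1.98, 2.00, 2.02 and 2.13 in room air replicates 1 to 5 and of 1.76, 1.54, 1.72, 1.60 and 1.86 in smoke replicates 1 to 5. Every smoke lung lay below every room air lung. The group means were 2.07 ± 0.10 with room air and 1.70 ± 0.13 with smoke (SD, n = 5 lungs each), and Psmb9 fell by 0.37 on the log2 scale (SE 0.071, 95% confidence interval -0.53 to -0.22, adjusted p = 0.00796, limma). With the slide as a block the adjusted p was 0.00246, and without each array in turn it lay between 0.00667 and 0.0226. The difference was below 0 in the 23 alternatives run on the scanner files and past the threshold in 19. It was not called with median centring (-0.45, adjusted p = 0.117), with ratios scaled between arrays after loess (-0.28, adjusted p = 0.225), with red alone set to equal 75th percentiles (-0.32, adjusted p = 0.361), or by the exact Wilcoxon test (adjusted p = 0.115 for Psmb9, from the smallest p that 5 against 5 can give).

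Psmb8, which takes the place of Psmb5, had a level of 1.71, 1.09, 1.07, 1.17 and 1.24 in room air replicates 1 to 5 and of 1.30, 1.14, 1.13, 1.12 and 1.25 in smoke replicates 1 to 5. Room air replicate 1 was far above the rest. The other room air lungs, from 1.07 to 1.24, overlapped the smoke lungs, from 1.12 to 1.30. The difference was -0.069 (SE 0.11, adjusted p = 0.854, limma) and turned to 0.046 without room air replicate 1. Psmb10, which takes the place of Psmb7, had a level of 1.96, 1.36, 1.28, 1.47 and 1.41 with room air and of 1.28, 1.33, 1.31, 1.19 and 1.31 with smoke. Room air replicate 1 was again far above the rest. The difference was -0.21 (SE 0.11, adjusted p = 0.368, limma) and -0.093 without room air replicate 1 (adjusted p = 0.417).

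**Figure D2:**
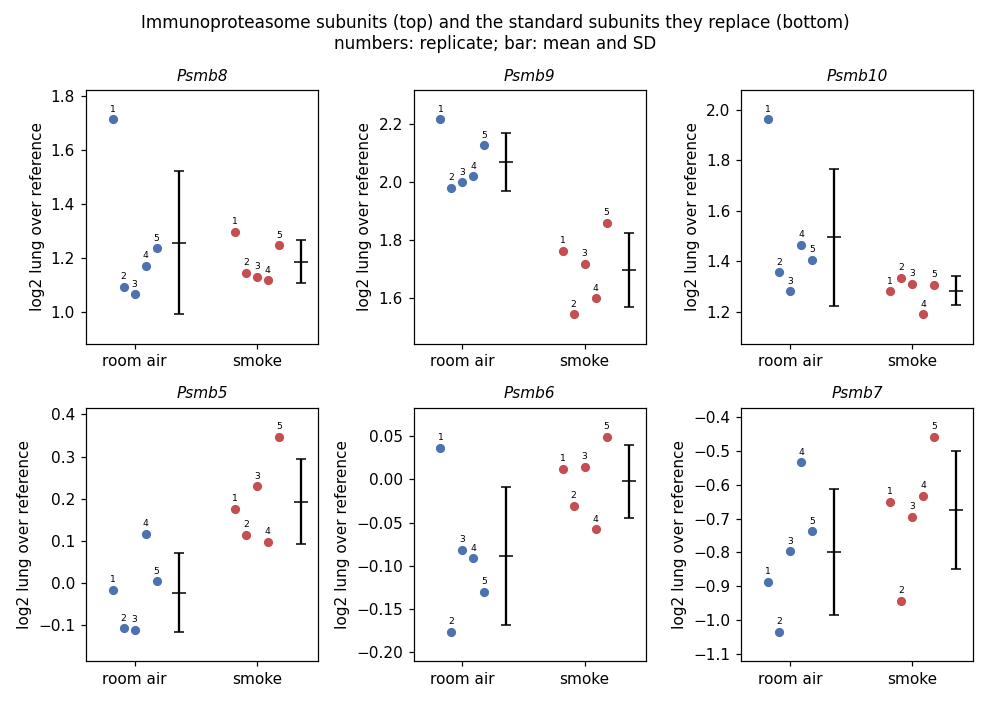
Log2 ratio of lung over reference in each lung for the immunoproteasome subunits (top) and the standard subunits they replace (bottom), with the group mean and SD. The smoke lungs of Psmb9 lie between 1.54 and 1.86 and the room air lungs between 1.98 and 2.22, and room air replicate 1 stands apart in Psmb8 at 1.71 and in Psmb10 at 1.96.

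The log2 ratio of each immunoproteasome subunit less that of the standard subunit it replaces was compared between the groups by a two-sided exact permutation test over the lungs, for 3 pairs. A difference of such values shows unequal change within a lung and not which of both subunits changed. Psmb9 minus Psmb6 was 2.18, 2.16, 2.08, 2.11 and 2.26 in room air replicates 1 to 5 and 1.75, 1.57, 1.70, 1.66 and 1.81 in smoke replicates 1 to 5. All smoke lungs lay below all room air lungs, by 0.46 between the means 2.16 ± 0.068 and 1.70 ± 0.091 (SD), with an exact permutation p of 0.00794, the smallest that 5 against 5 can give (0.0238 adjusted over the 3 pairs). Without each array in turn the difference lay between -0.49 and -0.43.

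Psmb8 minus Psmb5 was 1.73, 1.20, 1.18, 1.05 and 1.23 with room air and 1.12, 1.03, 0.90, 1.02 and 0.90 with smoke, in the order of replicates. In this pair 4 of 5 smoke lungs lay below every room air lung, and room air replicate 1 was far above the rest. The difference was -0.28 (exact permutation p = 0.0159, and 0.0239 adjusted over the 3 pairs), and -0.17 without room air replicate 1 (exact permutation p = 0.0397). It missed 0.05 with ratios scaled between arrays (-0.23, exact permutation p = 0.0635) and with red alone set to equal 75th percentiles (-0.32, exact permutation p = 0.0952). Psmb10 minus Psmb7 was 2.85, 2.39, 2.08, 2.00 and 2.14 with room air and 1.93, 2.28, 2.01, 1.82 and 1.77 with smoke. The groups overlapped in this pair, with 3 of 5 smoke lungs below every room air lung. The difference was -0.33 (exact permutation p = 0.0873) and -0.19 without room air replicate 1 (exact permutation p = 0.167), and it passed 0.05 without room air replicate 4 (-0.40, exact permutation p = 0.0476) and without smoke replicate 2 (-0.41, exact permutation p = 0.0397). Permuted within slides, each of the 3 pairs had a p of 0.0625, the smallest that 5 slides can give. Apart from the values marked as adjusted, the p values of the pairs were not adjusted over the 3 pairs.

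In the cap, 0 of 6 ATPases and 0 of 14 non-ATPase subunits were called by limma, with 0 and 2 at an unadjusted p under 0.05, beside 5521 of 27669 genes overall. The ATPases, Psmc1 to Psmc6, had log2 differences from -0.10 in Psmc1 to 0.095 in Psmc5 and a median of 0.039. The non-ATPases ranged from -0.13 in Psmd3 to 0.12 in Psmd14, the subunit that removes ubiquitin chains, with a median of 0.058 and 12 of 14 above 0. With median centring, the medians were -0.045 and -0.038. Psmd4, a ubiquitin receptor, had levels between 0.12 and 0.19 with room air and between 0.20 and 0.31 with smoke. The groups did not overlap by this probe, and its difference was 0.097 (SE 0.041, adjusted p = 0.229, limma), whereas the other probe of Psmd4 had a difference of -0.029 with groups that overlapped. Psmd3, a scaffold subunit of the lid, had a difference of -0.13 (SE 0.057, adjusted p = 0.248, limma). Psmd5, Psmd9 and Psmd10, which help to build the base of the cap, had differences of 0.039, 0.073 and 0.070. Without room air replicate 1 these differences were 0.018, 0.053 and 0.026. Psmd13 had the widest interval of all 20 cap genes, from -0.43 to 0.22, with room air lungs between -0.85 and 0.090.

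Among the activators, which open the core in place of a cap, 1 of 4 genes was called, beside 8.23% of all genes. Psme4, a large activator known for work on acetylated histones, had a level of -0.38, -0.55, -0.50, -0.56 and -0.59 in room air replicates 1 to 5 and of -0.28, -0.27, -0.21, -0.26 and -0.32 in smoke replicates 1 to 5. Every smoke lung lay above every room air lung, although room air replicate 1 came close. The group means were -0.52 ± 0.085 and -0.27 ± 0.038 (SD, n = 5 lungs each), and Psme4 rose 1.19-fold (log2 difference 0.25, SE 0.050, 95% confidence interval 0.14 to 0.36, adjusted p = 0.0108, limma). Without each array in turn the adjusted p lay between 0.00219 and 0.0310. The difference was above 0 in the 23 alternatives run on the scanner files and past the threshold in 18. It was not called with median centring (0.17, adjusted p = 0.612), with red alone set to equal 75th percentiles (0.30, adjusted p = 0.265) or quantiles (0.28, adjusted p = 0.253), by the exact Wilcoxon test, or at a threshold of 0.01.

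The probes of Psme4 did not give the same result. Of its 4 probes the brightest was called, and the differences of the others were 0.22 (adjusted p = 0.0810), 0.11 (adjusted p = 0.514) and 0.0028 (adjusted p = 0.990, limma). With the slide as a block, the probe at 0.22 was called as well (adjusted p = 0.0363, limma). The probe at 0.0028 was well above background in red on 0 of 10 arrays. With the mean of all probes the log2 difference of Psme4 was 0.15 and still called (adjusted p = 0.0283, limma, adjusted over genes in place of probes). Psme4 was the only 1 of the 19 members with several probes whose probes differed in call. In Psmd7, a lid subunit with 3 probes, the differences ran from -0.28 to 0.094 with none called.

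Psme1, which forms the interferon-induced activator ring together with Psme2, had a level of 1.14, 0.68, 0.73, 0.69 and 0.74 in room air replicates 1 to 5 and of 0.85, 0.84, 0.90, 0.74 and 0.82 in smoke replicates 1 to 5. Psme2b had 1.25, 0.38, 0.45, 0.52 and 0.51 with room air and 0.49, 0.62, 0.64, 0.49 and 0.48 with smoke. In both, room air replicate 1 was far above all other lungs. The difference of Psme1 was 0.031 (SE 0.085), and 0.12 without that lung (adjusted p = 0.197, limma), and that of Psme2b was -0.076 (SE 0.14), and 0.082 without it (adjusted p = 0.514). Psme3, the activator of the nucleus, had levels between -0.87 and -0.44 with room air and between -0.77 and -0.26 with smoke (difference 0.098, SE 0.11). Over the 4 activators the median log2 difference was 0.064, 0.11 without room air replicate 1, and -0.015 with median centring.

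**Figure D3:**
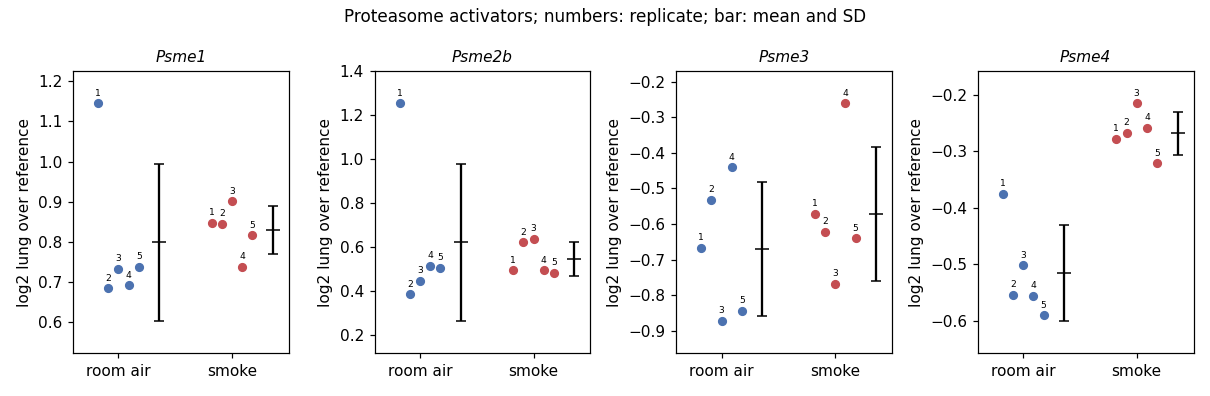
Log2 ratio of lung over reference in each lung for the 4 activator genes on the arrays, with the group mean and SD. The smoke lungs of Psme4 lie between -0.32 and -0.21, above the room air lungs at -0.59 to -0.38, and room air replicate 1 stands apart in Psme1 at 1.14 and in Psme2b at 1.25.

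Psmf1, an inhibitor of the core, and the chaperones Psmg1, Psmg2 and Psmg3, which assemble the alpha ring, were not called by limma, and 0 of the 4 had an unadjusted p under 0.05. The difference of Psmf1 was 0.022 (SE 0.067), and -0.091 with median centring. The chaperones had differences of -0.019, -0.084 and 0.017, with a median of -0.019. With median centring the log2 difference of Psmg1 was -0.13, that of Psmg2 -0.19 and that of Psmg3 -0.088. Without each array in turn, the chaperone median lay between -0.072 and 0.028, and the difference of Psmf1 between -0.032 and 0.054. Psmc3ip, which acts in meiotic recombination, and Psme3ip1, a partner of Psme3, had differences of -0.032 and 0.011.

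Room air replicate 1 stood apart from the other room air lungs in 4 proteasome genes, Psmb8, Psmb10, Psme1 and Psme2b, each time on the high side. Genes of several other lists were high in it too. S100a8 was 4.39 in this lung and between 1.49 and 2.09 in the other room air lungs, and the mean of the 4 measured neutrophil genes was 3.78 in it and 2.65, 2.60, 2.22 and 2.70 in room air replicates 2 to 5. In the smoke lungs this mean was 3.24, 3.09, 3.09, 2.57 and 2.92. S100a9 was 7.35 in room air replicate 1, Ly6g had no probe, and Ngp was above background in red on 1 of 10 arrays. The mean of 14 genes of class I antigen presentation and interferon gamma signalling was 1.10 in room air replicate 1 and between 0.66 and 0.89 in the other room air lungs. The mean of the 8 Nrf2 targets was -0.38 in it and -0.93, -0.87, -0.85 and -0.77 in room air replicates 2 to 5, with Gclc at 1.87 and 0.64 to 0.94. The macrophage gene Marco was 4.86 in it and between 2.49 and 3.32 in the others. The part of these genes and cells in the proteasome levels was not tested.

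**Figure D4:**
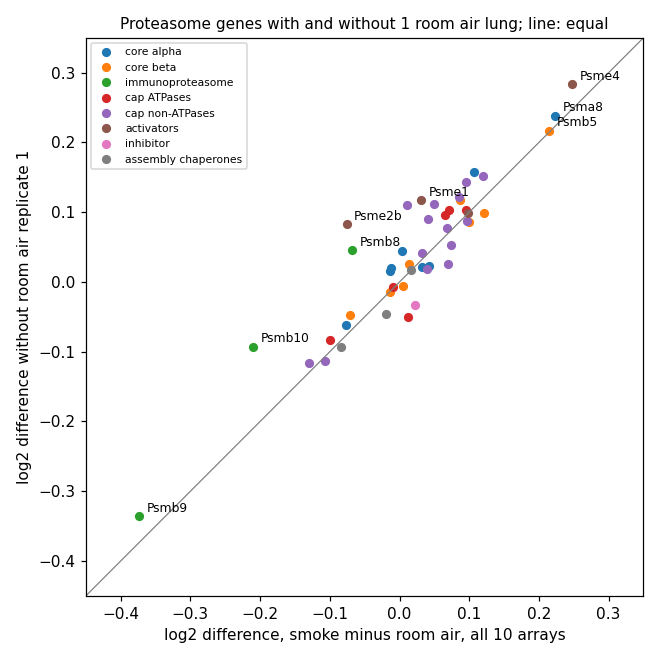
Log2 difference of each proteasome gene with all 10 arrays (horizontal) and without room air replicate 1 (vertical), coloured by class, with the line of equal values. Psmb8 moves from -0.069 to 0.046, Psmb10 from -0.21 to -0.093 and Psme2b from -0.076 to 0.082, and Psmb9 and Psme4 keep their sign at -0.34 and 0.28.

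The genes around the proteasome were read from lists. Counts in these lists stand beside 4.96% of all genes called higher and 3.27% called lower. Of all 27669 genes tested, 5521 had an unadjusted p under 0.05. Of 13 measured partners, assembly factors and subunits with other names, limma called 1 higher and 0 lower, and 4 had an unadjusted p under 0.05 (median difference 0.060). The called gene was Uchl5, a deubiquitinase of the cap, which rose from -1.13 ± 0.074 to -0.91 ± 0.090 (SD, n = 5), with all smoke lungs above all room air lungs (difference 0.22, SE 0.056, adjusted p = 0.0379, limma). Ecpas, which ties the cap to the core, had a difference of 0.18 (adjusted p = 0.210), which became 0.24 once room air replicate 1 was left out (adjusted p = 0.0292, limma). Pomp, which guides core assembly, had a difference of -0.040. With the slide as a block, Zfand2a was called as well (0.18, adjusted p = 0.0383, limma). Of the 16 genes of ubiquitin supply and delivery, limma called 0, and 0 had an unadjusted p under 0.05. Their median difference was 0.033.

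Of the 10 transcription factors of proteasome genes and their regulators, 2 rose and 0 fell (median difference 0.021, and 0.11 without room air replicate 1). Nfe2l2, which encodes Nrf2, was 0.93, 0.68, 0.69, 0.60 and 0.69 in room air replicates 1 to 5 and 1.03, 1.02, 0.95, 0.93 and 1.02 in smoke replicates 1 to 5. Its smoke lungs all lay above its room air lungs, closest at room air replicate 1 (difference 0.27, SE 0.061, adjusted p = 0.0211, limma). Maff, a small partner protein of Nrf2, was between -0.15 and 0.087 in the smoke lungs and between -1.43 and -1.23 in room air replicates 2 to 5. Room air replicate 1, at 0.0080, lay among the smoke lungs (difference 1.00, SE 0.23, adjusted p = 0.0231, limma), and without it the difference was 1.26. Nfe2l1, the factor best known for raising proteasome genes when the protease is inhibited, had a difference of -0.096 (SE 0.082, adjusted p = 0.656, limma), and of -0.027 without room air replicate 1. With the slide as a block, Mafk was called too (-0.23, adjusted p = 0.0193, limma).

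Of 8 genes known as targets of Nrf2, 6 rose and 0 fell, with a median log2 difference of 1.00. Nqo1 rose 4.22-fold, from -2.35 ± 0.068 to -0.27 ± 0.21 (SD, n = 5, adjusted p = 2.49e-07, limma), and Gclm rose 1.91-fold (adjusted p = 2.98e-06), with all 5 smoke lungs above all room air lungs in both. The cystine transporter gene Slc7a11 also rose, as did Txnrd1, Gclc and Srxn1. In red, Slc7a11 was above background on 2 of 5 room air arrays and on all 5 smoke arrays. Hmox1 (0.72, adjusted p = 0.270) and Me1 (0.14, adjusted p = 0.552) did not pass, although Hmox1 did with the slide as a block (adjusted p = 0.0462). No test compared the lists.

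Of the 14 genes of class I antigen presentation and interferon gamma signalling, 1 fell and 0 rose, where 3.27% of all genes were called lower and 4.96% higher. The median difference was -0.15, with 2 of 14 above 0, and the median was -0.092 without room air replicate 1. Irf1, a factor that interferon gamma induces, fell by 0.30 on the log2 scale (SE 0.077, adjusted p = 0.0351, limma). It was 2.02, 1.64, 1.75, 1.58 and 1.76 in room air replicates 1 to 5 and 1.47, 1.51, 1.34, 1.44 and 1.47 in smoke replicates 1 to 5, so that all smoke lungs lay below all room air lungs. H2-K1, a class I heavy chain, had a difference of -0.26 (adjusted p = 0.0670), and Tap1, which shares the stretch before its start with Psmb9, had one of -0.086 (SE 0.12, adjusted p = 0.825, limma). Ifng had a difference of -0.20 (adjusted p = 0.387). Both H2-K1 and Ifng passed with the slide as a block (adjusted p = 0.0247 and 0.0498, limma), but Ifng was above background in green on 0 of 10 arrays, so that its ratio rests on a reference that was not detected. Ifngr2 stood at 0.50 (adjusted p = 0.0825), with room air replicate 1, at 1.12, within the range of the smoke lungs. The difference became 0.65 once that lung, picked out from these same data, was left out (adjusted p = 0.000797, limma).

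**Figure D5:**
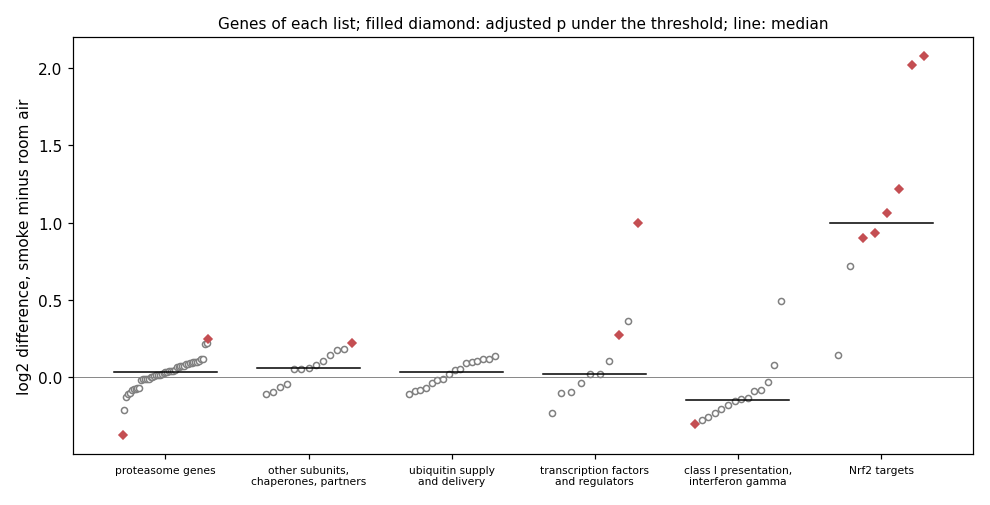
Log2 difference between smoke-exposed and room air lungs of each gene of the proteasome and of the 5 lists around it, with filled diamonds for adjusted p under 0.05 and a line at each list's median. The medians are 0.032 for the proteasome genes, -0.15 for class I presentation and interferon gamma, and 1.00 for the Nrf2 targets.

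Markers of cell types moved with smoke too. Their counts stand beside 4.96% of all genes called higher and 3.27% called lower, and 5521 of 27669 with an unadjusted p under 0.05. Of 7 macrophage genes 6 rose, with a median log2 difference of 1.39, and the list mean was 2.08, 1.88, 1.88, 1.89 and 1.86 in room air replicates 1 to 5 and 3.45, 3.44, 3.65, 3.42 and 3.40 in smoke replicates 1 to 5. Cd68, a macrophage gene, rose 4.16-fold (adjusted p = 6.92e-09, limma). Of 4 leukocyte genes 2 rose, Cd53 and Laptm5, and the differences of Ptprc, 0.35, and Coro1a, 0.47, missed the threshold but were called without room air replicate 1 (0.45 and 0.58, adjusted p = 0.00202 and 0.00988, limma). So was that of the neutrophil gene S100a8 (0.47, and 0.97 with an adjusted p of 0.00458, limma). S100a8 was the only 1 of the 4 measured neutrophil genes called in that fit, where 10.4% of all genes were called. Among 3 fibroblast genes Pdgfra and Dcn fell, each by 0.49, and Col1a1 had a difference of 0.25 (adjusted p = 0.467), and of 0.11 without room air replicate 1. Among 4 endothelial genes Pecam1 fell by 0.41. Limma called none of the 4 neutrophil, 6 T cell, 4 natural killer, 4 B cell, 4 lung epithelial, 2 erythroid, 3 heart muscle and 4 Y chromosome genes, of which 0, 1, 1, 0, 0, 0, 1 and 0 had an unadjusted p under 0.05. With the slide as a block, where limma called 13.8% of all genes, it called 3 T cell genes higher, Cd3d (0.35), Cd3g (0.43) and Cd2 (0.40). Their adjusted p values were 0.0327, 0.00539 and 0.0284, while Cd3e (0.076), Cd4 (0.036) and Cd8a (-0.12) were not called. None of the 6 T cell genes was called without room air replicate 1. The block fit also called the heart muscle gene Actc1 lower (-0.46, adjusted p = 0.00329). Ptprc and Coro1a were called higher in it too (adjusted p = 0.0285 and 0.0116). The 4 natural killer genes all had differences below 0, with a median of -0.28, and Ncr1 was called without room air replicate 1 (difference -0.39, adjusted p = 0.0324, limma), again with a reference above background on 0 of 10 arrays. The part of these cell types in the change of Psmb9, Psme4 and the pairs was not tested.

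These values have limits. A p that misses the threshold does not show equal levels, and a median over a class of genes holds no test. The content of both channels was read from marker genes, because the labels do not name the reference. In the deposited value table, a further alternative, limma called 0 of 46 proteasome genes measured, and 0 had an unadjusted p under 0.05, where it called 13 of 30099 probes in all, with 764 at an unadjusted p under 0.05. Its columns, which do not hold ratios, were assigned to the arrays they follow, those of the opposite group. RNA was measured, and neither proteasome protein nor its activity. The genes were looked at after earlier results of these data were known.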

How the data were processed

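Scanner files deposited by the authors give the intensity of each spot and of its local background in 2 channels, as read by Agilent Feature Extraction 9.5.3.1 per the file headers (the labels name version 9.1). Also in these deposited files are the scanner's log10 ratio, red over green, and other columns, flags of 0 or 1 for spots above background, saturated or uneven. A deposited series table holds log2 values, made with limma per the paper's methods. Its column medians are 7.34 to 8.06, and each column followed the mean log2 of both channels of the array with the same number in the other group more closely (correlations across spots of 0.992 to 0.995) than that of the array of its own name (0.983 to 0.989). The scale is thus that of an intensity and not of a ratio, while its centring stays unknown, and so does which group each column is from. It served only as an alternative, with each column assigned to the array it follows, which exchanges the groups of its names. By the labels of the arrays, Nqo1 rose 4.22-fold with smoke and 6 of 7 macrophage genes rose. The paper also lists NQO1 as higher in smoke-exposed mice.

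Here intensities were corrected with normexp (offset 50), control spots were left out, ratios were normalized by loess, spots with an outlier mark were set missing, and replicate spots were averaged by probe. The 5 smoke and 5 room air arrays, grouped by the labels, were compared with limma 3.58.1 (lmFit, eBayes, two-sided) under R 4.3.3, with files read by the data.table package (version 1.17.8). Its p values were adjusted by Benjamini and Hochberg's method for all probes, at 0.05. The limma fit was tested on simulated arrays that were independent of each other, with changes larger than those of any member. The permutation was checked on made-up values, and normalization and the choice of probes were not tested this way. A gene is its brightest probe in red over all arrays, and no filter on dim probes was applied. Paired subunits were compared by exact permutation, since limma's fit holds no such difference.

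Arrays of the same replicate number lay on the same slide and deviated together from their group means (correlations across probes 0.157 to 0.55, while arrays of different numbers had a median of -0.124 and at most 0.205), so an alternative fit took the replicate number as a block. Other alternatives changed the test, background correction, normalization, channel, filter, handling of probes and threshold, used the deposited table, or left out each array in turn. A sign change in a member uncalled both ways was not counted as a reversal.

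The members, lists and pairs were chosen with earlier results of these data known. Any proteasome gene could be named, with values by lung for those called and for the catalytic subunits, and other genes came only from the lists (partners, ubiquitin supply, transcription factors, class I presentation with interferon gamma, Nrf2 targets and cell type markers). Values by lung for Psma8, Psme1, Psme2b, Irf1 and Nfe2l2 were added after their values were seen. Paaf1, Nlrc5, Ly6g and Hbb-b1 had no probe. A few genes of the lists count in the totals and are not reported here by themselves. No gene coordinates are given beyond the promoter windows, since the array design uses another build. The green channel was compared after quantile normalization.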

Additional observations from a re-analysis of the deposited data

Results flagged for a closer look

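A lung was marked where its gap to the nearest lung of its group, divided by the range of the group, passed Dixon's critical value of 0.71 for 5 samples. Chance gives this in about 1 in 20 groups. Of the 94 groups of proteasome genes, 10 held such a lung, and in 4 of the 10 it was room air replicate 1 on the high side. All values are log2 ratios of lung over reference.

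In room air, replicate 1 stood high above its group in Psmb8 (1.71), Psmb10 (1.96), Psme1 (1.14), Psme2b (1.25) and Psmb8 minus Psmb5 (1.73). The same lung was high in Ecpas (-0.64), Uba6 (-0.45), Vcp (0.54), Nfe2l2 (0.93), Maff (0.0080), Tapbp (1.13), Gclc (1.87), Txnrd1 (-0.044) and S100a8 (4.39).

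Other room air lungs stood apart as follows. Replicate 2 was low in Rad23b (-0.71). Replicate 3 was low in Psmc5 (0.30) and high in Ubqln1 (-0.77). Replicate 4 was high in Nfe2l3 (0.63) and low in Ifngr1 (1.68). Replicate 5 was low in Psmd3 (-0.076).

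Among the smoke lungs, replicate 2 was low in Psma6 (-0.53), Psmd8 (-0.86), Tap2 (-1.21) and Hmox1 (-2.02). Replicate 3 was low in Psmc1 (0.025) and high in Txnl1 (-0.58), Tap1 (0.18) and Mrc1 (5.15). Replicate 4 was high in Psma5 (-0.33) and low in Marco (4.97) and Gzma (1.45). Replicate 5 was low in Uba1 (-1.0) and high in Pdgfra (0.84). The cause of these values was not tested.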

How the results depend on the processing

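Leaving out each array in turn called 2102 to 3660 probes, 1 to 2 proteasome genes higher and 1 lower, where Psmb5 joined Psme4 without room air replicate 4 and Psmb9 was the lower gene each time. The pair Psmb10 minus Psmb7 then ranged from -0.41 to -0.19, past 0.05 without room air replicate 4 or smoke replicate 2, while the other 2 pairs stayed past 0.05. With the replicate block 5019 probes and 2 proteasome genes higher (Psma8 and Psme4) were called, and the pairs Psmb8 minus Psmb5 (-0.28) and Psmb9 minus Psmb6 (-0.46) had a permutation p of 0.0625 within slides, the smallest possible.

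The exact Wilcoxon test called 0 probes, and so 0 proteasome genes higher and 0 lower (5444 probes and 5 proteasome genes at an unadjusted p under 0.05). Its smallest possible p adjusts to 0.115 for Psmb9 and Psme4 here. Median centring called 1434 probes by limma and 0 proteasome genes either way (2 unadjusted), with medians of -0.056 for core alpha, -0.045 for cap ATPases, -0.038 for cap non-ATPases and -0.091 for the inhibitor. The red channel at the 75th percentile called 1759 probes by limma and 0 proteasome genes (2 unadjusted), with a core alpha median of 0.092 and Psmb8 minus Psmb5 at -0.32. Scaling after loess called 2 genes higher and 0 lower, with Psmb8 minus Psmb5 at -0.23. The mean of all probes, adjusted over genes in place of probes, called 2 higher, and a threshold of 0.01 called 0 higher. The deposited table called 0 higher and 0 lower by limma (0 unadjusted, with 13 of 30099 probes called in all and 764 unadjusted). The scanner's ratio gave a core beta median of 0.12. Causes were not tested.

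Limits: signals near background are compressed by the offset, which bears on Psma8, Psmb11, Ifng, Ncr1, Klrb1c, Cd8a, Cd79a, Ngp, Uty, Siglecf and Mrc1, each above background in green on 0 to 3 of 10 arrays. Slc7a11 is affected in red, where it was above background on 2 of 5 room air arrays. The pairs of groups and the channels rest on the files as assigned. The median difference over all probes stayed between -0.023 and 0.0012 under the scalings.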
